A study of Gallus gallus with 6 samples.

Results

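The miR-10 and miR-196 miRNAs lie inside the Hox gene clusters, and their reads were followed here in the testes of breeder cocks. Members were chosen by name, with gga-miR-10a, gga-miR-10b and gga-miR-196 as the chicken members. Every line of the miRNA table named miR-10 or miR-196, with or without a letter, an arm ending or a locus number and from any species, was taken, and lines with the same mature sequence were joined. This gave 16 lines under 14 names, which were 12 distinct sequences out of 1151 in all, 8 of miR-10 and 4 of miR-196. Small RNA had been sequenced from the testes of 6 Cobb500 breeder cocks, a meat-type parent line, at 40 weeks of age. The 3 birds of the C group ate a corn and soybean diet, and the 3 birds of the A group ate the same diet with 10 g of Astragalus polysaccharide (APS), a plant feed additive, per kg. Each library came from the testis of 1 bird.

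Hox genes specify the position of tissues along the body axis, and the genes of these miRNAs lie within the Hox clusters. In the RefSeq annotation of the chicken assembly bGalGal1.mat.broiler.GRCg7b, used here for neighbouring genes only, the gene of miR-10a lies between HOXB5 and HOXB4 and that of miR-10b between HOXD4 and HOXD8. The genes of the miR-196 hairpins lie between HOXB13 and HOXB8 (miR-196-1), between HOXA7 and HOXA10 (miR-196-2) and between HOXC9 and HOXC10 (miR-196-3). The annotated spans of HOXB3, HOXD3 and HOXA9 overlap the genes of miR-10a, miR-10b and miR-196-2. The coding gene with the symbol LOC107055286 overlaps that of miR-196-1. The neighbours given above are the nearest coding genes that do not overlap. A miRNA hairpin is cut into a 5p and a 3p arm, and the arm that is loaded recognises mRNAs mainly through its seed, bases 2 to 8. In mouse, miR-196 directs the cleavage of Hoxb8 mRNA, and in zebrafish miR-10 represses Hox mRNAs of its own neighbourhood.

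The 5p sequences of miR-10 are shown because the names and the letters of the table disagree for the most abundant of them. Capitals mark the seed.
gga-miR-10a-5p, also listed as gga-miR-10b-5p: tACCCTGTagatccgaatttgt
aca-miR-10c-5p, also listed as pma-miR-10a: tACCCTGTagactcgaatttgt
xtr-miR-10c: aCCCTGTAgactcgaatttgt
bbe-miR-10b-5p: aCCCTGTAgatccgatcttgt

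The first sequence stood on 1 line as gga-miR-10a-5p with no change marked and on another as gga-miR-10b-5p with A12T marked against the database sequence (database base first, position from the 5′ end, then the base read). Its reads were divided equally between both lines. The letters are thus those of miR-10a, and the 2 lines hold equal parts of the same reads. No sequence of the table held bases 2 to 14 with the A at base 12 that the name gives for miR-10b (0 of 1151 sequences), whereas 3 held the miR-10a letters over these bases. A gga-miR-10b-5p level of its own was therefore not seen, and the sequence is called miR-10a-5p here. As the authors allowed 1 mismatch, whether reads with the miR-10b letters were joined to these lines cannot be told.

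The aca-miR-10c-5p sequence, called miR-10c-5p here after an Anolis lizard name, differed from miR-10a-5p by T12C and C13T, with the base of miR-10a-5p first. The xtr-miR-10c sequence, named after a frog, had the same substitutions and lacked the first base, which moves its seed by 1 position. The authors placed these miR-10c sequences and bbe-miR-10b-5p in the class whose precursors and reads were not found in the chicken genome they used. The sequence bbe-miR-10b-5p, named after a lancelet, began as miR-10a-5p from base 2 and then differed by A17T and T18C. Its last 16 bases, from base 6 on, are those of gga-miR-99a-5p, a miRNA related to miR-10 by sequence. The pair is shown with these shared bases in capitals.
bbe-miR-10b-5p: accctGTAGATCCGATCTTGT
gga-miR-99a-5p: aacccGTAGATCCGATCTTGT

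The 5p sequences of miR-196 and the 3p arms are shown to set the rare members beside the common ones, again with the seed in capitals.
gga-miR-196-5p: tAGGTAGTttcatgttgttggg
gga-miR-196-5p, 1 base longer: tAGGTAGTttcatgttgttgggc
rno-miR-196c-5p: tAGGTAGTttcgtgttgttgg
gga-miR-196-1-3p: aCAAGAACatcaaactacctga
gga-miR-10a-3p: cAAATTCGtatctaggggaat
gga-miR-10b-3p: aCAGATTCgattctaggggaat
aca-miR-10c-3p: gCAAATTCgtctctaggggaat

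By seed, the members fell into 7 groups, of which ACCCTGT and AGGTAGT held 3 sequences each and CCCTGTA held 2. No sequence outside the members carried one of these seeds at bases 2 to 8. The seed of miR-196 stood 1 base further on, at bases 3 to 9, in 12 of the 26 let-7 sequences and in 13 of all 1151 sequences (1.13%). rno-miR-196c-5p differed from gga-miR-196-5p by A12G, outside the seed. The 3p arm of miR-10c from its base 2 on differed from gga-miR-10a-3p by A10C.

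Reads of these miRNAs were almost wholly miR-10a-5p. The libraries held 497286 to 743187 miRNA counts, and the members took 1.53% to 2.52% of them. Over the 6 libraries miR-10a-5p had 75828 of the 79999 member counts, or 94.8% (95% Wilson interval 94.6% to 94.9%), and ranked 15 among all sequences by mean CPM. CPM here are counts per 1e+06 counts of the tested sequences after TMM scaling. Intervals of shares cover counting error only and leave out differences between birds. PCR copies were not told apart by molecular identifiers, so these intervals may be too narrow. In C the counts of miR-10a-5p were 7155, 17888 and 11444 in replicates 1 to 3, and in A they were 13021, 16659 and 9661. These were 12808, 27645 and 20857 CPM in C and 21818, 25579 and 14375 CPM in A. The lowest levels were those of C replicate 1 and A replicate 3 and the highest those of C replicate 2 and A replicate 2, so that the diets overlapped over most of their range. In bulk tissue, fewer cells with miR-10a and less miR-10a per cell cannot be told apart.

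**Figure D1:**
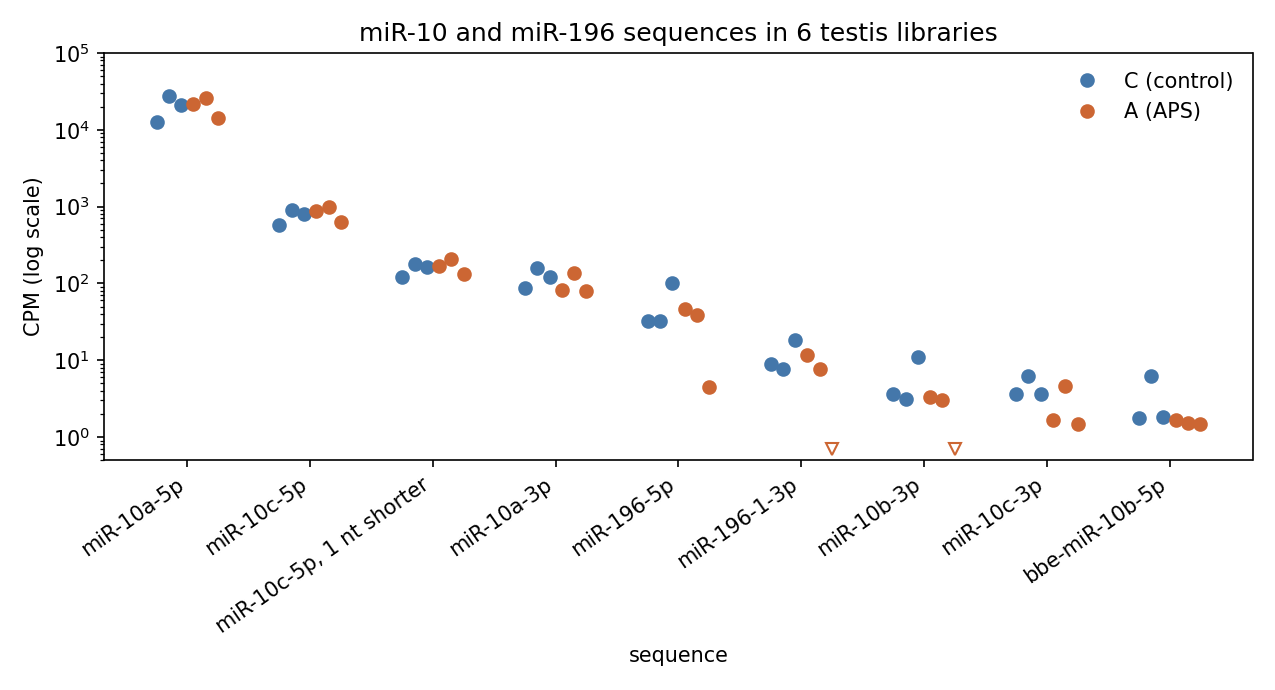
Level of each tested miR-10 and miR-196 sequence in CPM (log axis) in each library, C in blue and A in orange, replicates 1 to 3 from left to right within a diet. Open triangles at the bottom mark counts of 0. miR-10a-5p runs from 12808 to 27645 CPM, and miR-196-5p is at 102 CPM in C replicate 3 and 4.46 CPM in A replicate 3.

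The miR-10c-5p sequence was far below miR-10a-5p in every library, and its level varied less, with a highest over lowest CPM of 1.72 against 2.16. Its counts were 325, 585 and 435 in C and 520, 653 and 425 in A. Relative to miR-10a-5p this was 4.54%, 3.27% and 3.80% in C and 3.99%, 3.92% and 4.40% in A. The share was highest in the 2 libraries with the least miR-10a-5p CPM, C replicate 1 and A replicate 3, and lowest in C replicate 2, which had the most. As miR-10a-5p is the denominator of this share and varied more, this order is not a separate observation. The CPM of miR-10c-5p was itself lowest in C replicate 1 (582) and A replicate 3 (632). Wilson intervals of the ratio take the miR-10a-5p counts as a fixed number of trials and may be too narrow. Those of C replicate 1 (4.08% to 5.05%) and C replicate 2 (3.02% to 3.54%) lay apart. The shorter xtr-miR-10c sequence had 68.0 to 115 counts in C and 89.0 to 134 in A, which was 19.3% to 20.9% of the miR-10c-5p counts in every library. Together these 2 sequences made up 3.76% to 5.21% of the 5p counts of miR-10a and miR-10c. The ratio of miR-10c-5p to miR-10a-5p counts overlapped between the diets. It was 3.87% ± 0.640 in C against 4.10% ± 0.258 in A (SD over 3 libraries a diet, two-sided permutation p = 0.6). With 3 libraries against 3 this p cannot go below 0.1, and so cannot pass 0.05 whatever the data.

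The 3p arm of miR-10a was the minor arm. It had 48, 104 and 66 counts in C and 49, 88 and 53 in A, against the 5p counts given above. Its share of the counts of both arms was 0.666%, 0.578% and 0.573% in C and 0.375%, 0.525% and 0.546% in A, with 95% Wilson intervals from 0.503% to 0.882% in C replicate 1 and from 0.284% to 0.495% in A replicate 1. All A libraries lay below all C libraries, with means of 0.606% ± 0.0524 in C against 0.482% ± 0.0933 in A (SD over 3 libraries a diet, p = 0.1 by exact two-sided permutation, which cannot go lower here). The difference in means of -0.124 percentage points was -0.07 without A replicate 1. Such a gap was common, since the arm shares of 15 of 62 chicken hairpins with both arms and at least 100 counts (24.2%) did not overlap between the diets. Some of these hairpins, here and below, hold the same counts on both arms, such as miR-130a and miR-130c, yet each was counted. Others had next to no reads on 1 arm, such as let-7g with 0.154 counts on 5p. The gap between the closest libraries, C replicate 3 and A replicate 3, was within their counting intervals, and only those of C replicate 1 and A replicate 1 lay just apart. The 5p counts of these shares may hold reads of miR-10b.

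**Figure D2:**
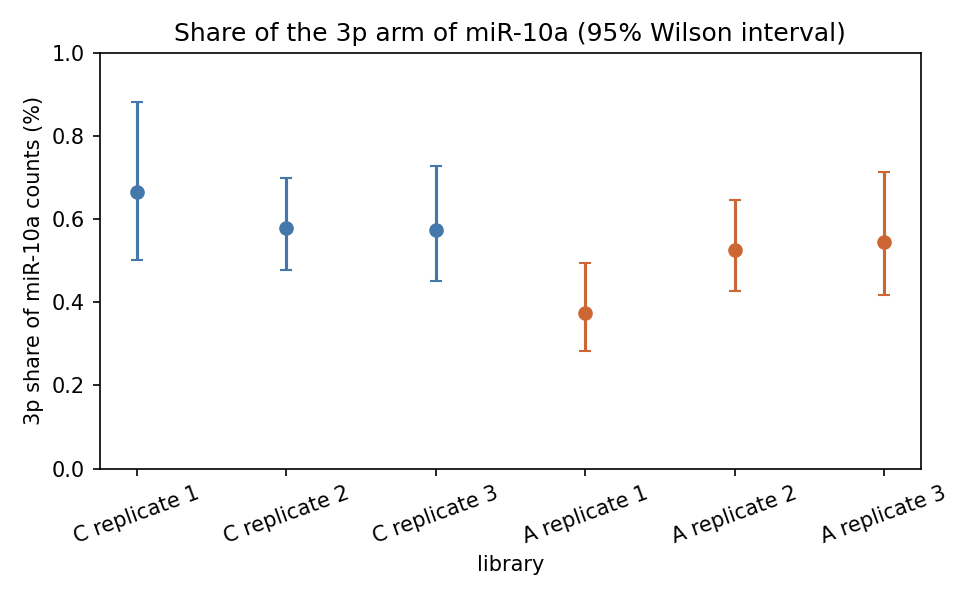
Percentage of the miR-10a counts of both arms that came from the 3p arm, per library, with 95% Wilson intervals for counting error, C in blue and A in orange. The C libraries lie between 0.573% and 0.666% and the A libraries between 0.375% and 0.546%, and the intervals of most libraries overlap.

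Compared with the other hairpins, miR-10a used its arms unevenly and miR-196 less so. Over all libraries 99.5% of the miR-10a counts were on the 5p arm. The miR-10b hairpin was listed with the same 5p sequence. Of the 60 hairpins other than these, 17 had a larger share on their larger arm. Over all 62 hairpins the median share of the larger arm was 98.6%, and the lowest was 54.4%. For miR-196 the 5p arm held 153 of 185 counts, or 82.7% (95% Wilson interval 76.6% to 87.5%), and 8 of the 62 hairpins had a lower share. The 5p sequence of miR-196 is named without a locus and the 3p sequence is named for the miR-196-1 hairpin, so this share may join reads of several hairpins. In the libraries the 5p share of miR-196 was 79.2%, 80.8% and 84.8% in C and 80.6%, 83.3% and 100% in A, the last from 3 counts. The diets overlapped, with 81.6% ± 2.93 in C against 88.0% ± 10.5 in A (SD over 3 libraries a diet, p = 0.6 by exact two-sided permutation).

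The 3p arms, unlike the 5p arms, were found in separate gga-miR-10a and gga-miR-10b forms. gga-miR-10b-3p had 2, 2 and 6 counts in C and 2, 2 and 0 in A. It made up 14 of the 422 counts of both 3p arms, or 3.32% (95% Wilson interval 1.99% to 5.49%). By this arm most miR-10 3p reads of the testis carried the miR-10a name. The share of miR-10b-3p ranged from 1.89% to 8.33% in C and from 0%, which allows up to 3 of 53 counts, to 3.92% in A. The diets overlapped (p = 0.4 by exact two-sided permutation of 3 libraries a diet, which cannot go below 0.1), on counts too low to order the libraries.

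miR-196 was rare in these libraries and its level varied widely between birds. gga-miR-196-5p had 18, 21 and 56 counts in C and 28, 25 and 3 in A, or 32.2, 32.5 and 102 CPM in C and 46.9, 38.4 and 4.46 CPM in A. C replicate 3 was thus high and A replicate 3 low, while the other 4 libraries lay close to each other in both diets. The 3p arm, gga-miR-196-1-3p, had 5, 5 and 10 counts in C and 7, 5 and 0 in A, again with the highest count in C replicate 3 and 0 in A replicate 3. At that depth a count of 0 allows up to 3 counts, or 4.74 CPM before TMM. The longer gga-miR-196-5p sequence had 1 count in C replicate 1 and 1 in A replicate 1, and rno-miR-196c-5p had 1 each in C replicate 2 and C replicate 3 and 0 in A.

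All miR-196 counts together came to 24, 27 and 67 in C and 36, 30 and 3 in A, against 7601 to 18702 counts of miR-10 in C and 10230 to 17540 in A. As a share of all member counts miR-196 was 0.315%, 0.144% and 0.553% in C and 0.262%, 0.171% and 0.0293% in A. The intervals of C replicate 3 (0.436% to 0.702%) and A replicate 3 (0.00997% to 0.0862%) lay apart. The interval of A replicate 3 was below those of all other libraries, whereas that of C replicate 3 overlapped with that of C replicate 1 (0.212% to 0.468%). The log2 ratio of miR-10 to miR-196 counts was 8.41 ± 0.98 in C against 9.83 ± 1.68 in A (SD over 3 libraries a diet, p = 0.3 by exact two-sided permutation), and its difference of 1.42 between the diets was 0.47 without A replicate 3.

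The comparison of diets asks whether APS in the feed went with a change of these miRNAs. It found none past an adjusted threshold. A sequence was tested where the deposited normalized values of C or of A averaged 1 or more, which kept 774 of the 1151 sequences and 9 of the 12 members. The N-containing gga-miR-10a-5p line, the longer gga-miR-196-5p and rno-miR-196c-5p were below this limit. By edgeR's quasi-likelihood test 0 of the 774 sequences (0%) had an adjusted p under 0.05, and 46 (5.94%) had an unadjusted p under 0.05, 19 higher in A (2.45%) and 27 lower (3.49%). DESeq2's Wald test also called 0 after adjustment and 23 before it. Of the 9 members tested, 0 had an unadjusted p under 0.05 in edgeR, and their adjusted p-values ran from 0.733 to 0.978.

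For miR-10a-5p the mean level was 20437 ± 7427 CPM in C against 20591 ± 5702 CPM in A (SD over 3 libraries a diet, here and below). The log2 fold change, A against C, was 0.01 with a standard error of 0.28 and an edgeR adjusted p of 0.978, and its 95% interval ran from -0.63 to 0.65. The libraries leave room for a change of this size in either direction, and the sign turned in 10 of 19 alternative settings. Without C replicate 1 the value was -0.23 and without C replicate 2 it was 0.28. The miR-10c-5p sequence averaged 760 ± 164 CPM in C against 835 ± 188 CPM in A, with a log2 fold change of 0.14 and a 95% interval from -0.39 to 0.66. xtr-miR-10c had a log2 fold change of 0.12, with 154 ± 29.2 CPM in C against 169 ± 36.7 CPM in A. Without C replicate 1 these values were -0.022 and -0.020, and without A replicate 2 they were -0.046 and -0.076.

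The other members had log2 fold changes below 0, which made 6 of the 9 members tested, against 54.9% of the sequences tested. Among these 6, bbe-miR-10b-5p was kept by the filter only through its C values. gga-miR-10a-3p averaged 122 ± 37.4 CPM in C against 98.7 ± 31.6 CPM in A, a log2 fold change of -0.31 with a standard error of 0.32. It was -0.068 without C replicate 2 and -0.64 without A replicate 2. gga-miR-196-5p averaged 55.6 ± 40.3 CPM in C against 29.9 ± 22.5 CPM in A, a log2 fold change of -0.89 with a standard error of 0.70 and an edgeR adjusted p of 0.754. Its size depended on both replicate 3 libraries. It was -0.37 without A replicate 3, -0.12 without C replicate 3 and 0.40 without either of them, a setting chosen after the data were seen. gga-miR-196-1-3p had a log2 fold change of -0.84, which was -0.25 without A replicate 3, -0.38 without C replicate 3 and -1.54 without A replicate 1. With neither replicate 3 library it was 0.21.

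The remaining 3 members had at most 14 counts over the 6 libraries. gga-miR-10b-3p had a log2 fold change of -1.38 (95% interval -3.68 to 0.92), which was -0.81 without A replicate 3 and -0.61 without C replicate 3. With neither replicate 3 library it was -0.049. aca-miR-10c-3p had 2, 4 and 2 counts in C and 1, 3 and 1 in A, with a log2 fold change of -0.75. Its value was -1.43 without A replicate 2, -0.48 without A replicate 3 and -0.45 without C replicate 2. bbe-miR-10b-5p had 1, 4 and 1 counts in C and 1 in each A library, with a log2 fold change of -1.01 that was -0.20 without C replicate 2. It was the 1 member whose CPM did not overlap between the diets, against 13% of the sequences tested. The gap came only from the scaling of single counts. This sequence also passed the filter only through C, where it was higher, so neither its direction nor its gap counts as a finding.

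**Figure D3:**
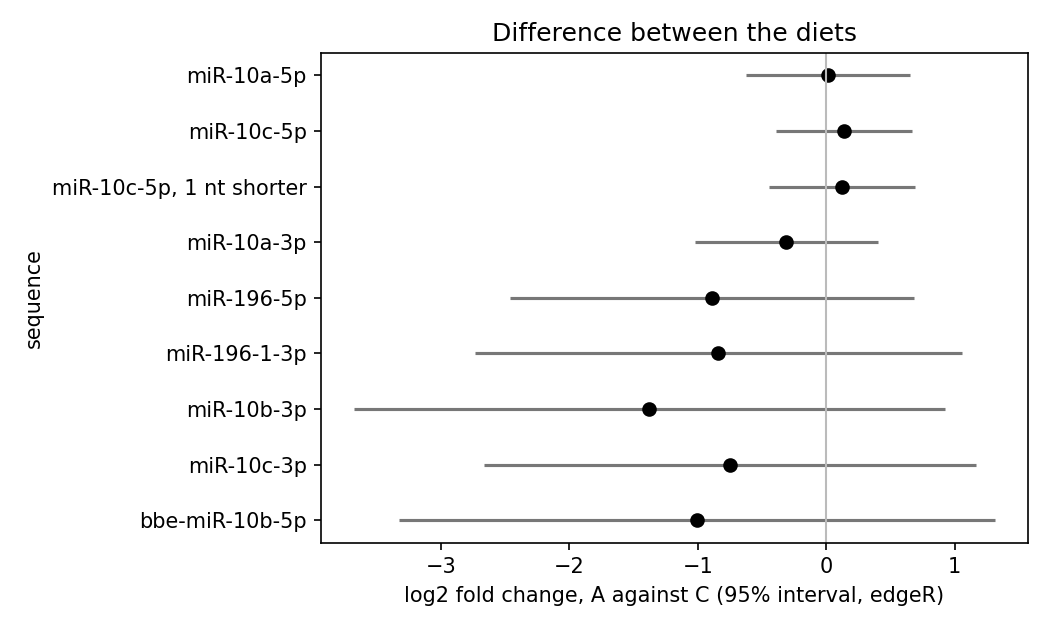
log2 fold change of A against C for the 9 members tested (points) with 95% intervals from the edgeR fit (lines), in order of counts from the most abundant at the top. Every interval crosses 0, from -0.63 to 0.65 for miR-10a-5p to -3.68 to 0.92 for miR-10b-3p.

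Across the 6 libraries the level of miR-10a-5p moved most like those of minor miR-99 sequences and of miR-143 and miR-10c-5p sequences. Among 178 other sequences with a mean of at least 100 CPM, likeness was measured as the root mean square difference of log2 CPM after centring each sequence on its mean, as a description over 6 libraries that share their scaling. The nearest were ssa-miR-99-5p at 0.12, hsa-miR-143-5p at 0.14, miR-10c-5p at 0.15, hsa-miR-143-3p at 0.16 and ccr-miR-99 at 0.16, whereas the median sequence was at 0.45. miR-143 is typical of smooth muscle. The near miR-99 sequences were at 124 to 322 CPM (ssa-miR-99-5p) and 704 to 1806 CPM (ccr-miR-99), and gga-miR-99a-5p was not among the nearest. All miR-99 sequences, summing to 87545 to 166441 CPM, and those of miR-100, at 5505 to 12330 CPM, both had their lowest sum in C replicate 1. In A replicates 1 and 3 the miR-99 sum was 103525 and 101163 CPM, where miR-10a-5p was at 21818 and 14375 CPM. gga-miR-99a-5p shares a run of 10 bases with miR-10a-5p and gga-miR-100-5p a run of 11.

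Summed marker miRNAs of stromal cells had a similar order of libraries. The smooth muscle list (miR-143 and miR-145, both found) summed to 62384 to 110810 CPM in C and 60741 to 108317 CPM in A. Nearly all of it was hsa-miR-143-3p, at 61883 CPM in C replicate 1 and 109921 CPM in C replicate 2. That sequence was picked above for its nearness to miR-10a-5p, so the order of this sum is not a further observation. The fibroblast list (miR-199 and miR-214, both found) ran from 16093 to 36036 CPM in C and from 19194 to 35157 CPM in A. The vessel list, miR-126 alone, ran from 5540 to 18051 CPM in C and from 3860 to 14538 CPM in A. Each of these sums was highest in C replicate 2, the library with the most miR-10a-5p, and lowest in C replicate 1 or A replicate 3, those with the least. The TMM factors were largest in C replicate 1 (1.12) and A replicate 3 (1.06) and smallest in C replicate 2 (0.871). A larger factor lowers every CPM of its library, so the scaling adds to this shared order. How much it adds was not tested. The part of such cells in the levels of miR-10a-5p was not tested.

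For gga-miR-196-5p no sequence came as near, but its 3 to 56 counts a library limit how near any could come. A sequence with the same CPM in every library would be at 1.37. The low level of gga-miR-196-5p in A replicate 3 rests on 3 counts. The closest of 179 were ola-miR-126-3p at 0.81, gga-miR-126-5p at 0.95 and then gga-miR-126-3p, followed by gga-miR-146a-5p at 1.06 and the predicted PC-3p-11513_334 at 1.13, with a median of 1.39. The miR-126 sequences, which mark endothelial cells, share with miR-196-5p the low level in A replicate 3. They did not share its high level in C replicate 3, where gga-miR-126-3p stood at 9145 CPM, below its 14044 CPM in C replicate 2. The part of vessels in the level of miR-196 was not tested.

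**Figure D4:**
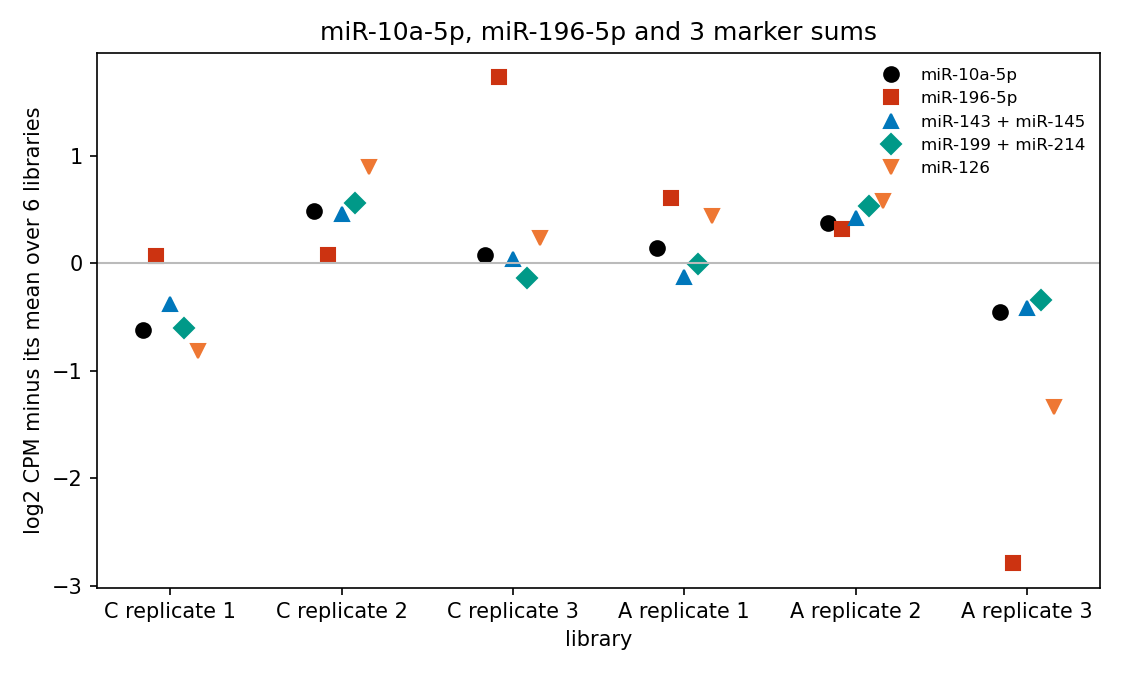
log2 CPM minus the mean over the 6 libraries, for miR-10a-5p, miR-196-5p and the summed smooth muscle (miR-143 and miR-145), fibroblast (miR-199 and miR-214) and vessel (miR-126) lists, per library. miR-10a-5p and the 3 sums are lowest in C replicate 1 and A replicate 3, and miR-196-5p stands apart in C replicate 3 and A replicate 3.

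The remaining lists were read beside the tissue label and do not settle it. The gonad miRNA miR-202 was abundant in every library, at 40046 to 66477 CPM, and the list of meiotic germ cells and ciliated cells (miR-34b, miR-34c and miR-449, 3 of 3 found) summed to 819 to 990 CPM in C and 1205 to 1377 CPM in A, with no overlap. The list of red cells ran from 127 to 283 CPM, that of white cells from 614 to 1563 CPM and that of neural cells from 1574 to 2150 CPM. Striated muscle (3 of 4 found) ran from 2860 to 4333 CPM and epithelium (4 of 5 found) from 5887 to 7221 CPM. The striated muscle sum rested largely on miR-499, with 12597 counts over the 6 libraries against 497 for miR-133a. The list of meiotic germ cells and ciliated cells lay below the neural, striated muscle and epithelium lists in every library. The 26 let-7 sequences, of which 12 hold the seed of miR-196 at bases 3 to 9, summed to 125499 to 129362 CPM in C. In A they summed to 113624 to 117993 CPM, also without overlap. Of the single sequences tested, 13% did not overlap between the diets. The part of the germ cell or let-7 difference in the member values was not tested. miR-615, a Hox cluster miRNA of mammals, had 0 lines in the table.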

How the data were processed

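The authors removed adapters, junk, reads outside 18 to 26 nt and other RNA families with ACGT101-miR (version 4.2 in the labels) and aligned the sequences to miRBase precursors with 1 mismatch allowed. For the genome build, not given in the sources used here, no coordinates were needed. Raw values as deposited are expected counts, because the authors divided the reads of a sequence between its lines. The deposited normalized values are a signal, the count times 1 constant per library. The deposited group means, fold ratio, its log2 and the p-value per line are the authors' own comparison and were not used. The paper and the labels differ in the number of birds, the RNA kit and the instrument.

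Values of lines with the same sequence were summed and rounded to whole numbers (94.3% were whole within 0.001, and 3 member sequences had values that were not). In R 4.3.3, edgeR 4.0.16 compared A with C by its quasi-likelihood test after TMM scaling, and p-values were adjusted by Benjamini-Hochberg over the 774 sequences kept. Standard errors were derived from each log2 fold change and its F statistic. Shares and ratios were compared by exact permutation. The script was tested on simulated data. Descriptions and plots came from scipy 1.17.1, matplotlib 3.10.9, pandas 2.3.3 and numpy 2.4.6 under Python 3.11.15. Alternatives used DESeq2 1.42.0 and limma 3.58.1. The named sequences are all members, sequences with a member's seed, miR-99, miR-100, let-7 and miR-615, the 5 sequences of at least 100 CPM nearest to miR-10a-5p and to miR-196-5p, and the marker lists. gga-miR-99a-5p is printed for its shared bases, seen in the data. The members and lists were chosen with earlier results of these data known.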

Additional observations from a re-analysis of the deposited data

How the results depend on the processing

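Alternatives tried were the lack of a filter, a mean of at least 10, DESeq2's size factors, its Wald test, the study's valid reads or the authors' constants as library sizes, quantile normalization with limma-voom, the study's own test, limma on log2(normalized value + 1), a replicate block, each library left out, sums per name and no sequences absent from the chicken genome (gp3). The number of sequences with an unadjusted p under 0.05 was 46, and 84 without a filter, 29 with a mean of at least 10, 23 with the Wald test, 29 without both replicate 3 libraries (chosen after the data were seen) and 30 to 61 with 1 library left out. Without a filter 12 sequences had an adjusted p under 0.05, none of them a member. All other settings called 0. Of 163 member values, 147 kept their direction and 16 turned, and no adjusted p was below 0.458. The unadjusted p of gga-miR-196-5p was 0.0249 without a filter. For miR-10a-5p the log2 fold change was -0.015 with a mean of at least 10, -0.0091 with DESeq2's size factors and with its Wald test, -0.063 with valid reads, -0.023 with the authors' constants and with the study's own test, -0.035 per name, and -0.23 to 0.28 with 1 library left out. With 1 library or both replicate 3 libraries left out, miR-10c-5p ran from -0.046 to 0.33, xtr-miR-10c from -0.076 to 0.32 and gga-miR-196-1-3p from -1.54 to 0.21. Without both replicate 3 libraries gga-miR-196-5p was at 0.40 and gga-miR-10b-3p at -0.049. The cause of these turns was not tested. With 1 library left out, gga-miR-196-5p ran from -1.35 to -0.12, the 3p share difference of miR-10a from -0.16 to -0.07 percentage points, the 5p share difference of miR-196 from 0.350 to 10.1 percentage points and the log2 ratio difference from 0.47 to 2.05. The replicate numbers share only a number. Deviations of same-numbered libraries over 179 sequences had correlations of 0.0227, 0.477 and -0.0184, and only replicate 2 of C matched its own number best. With the number as a block 60 sequences had an unadjusted p under 0.05 and miR-10a-5p a log2 fold change of 0.04. Counts under 20 per library limit the 3p arms of miR-10b and miR-196.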
